A study of Homo sapiens with 12 samples.

Results

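AREG, EREG, HBEGF, TGFA, BTC, EPGN and NRG1 are ligands of the epidermal growth factor (EGF) family. These 7 of the 28512 genes measured were taken by gene symbol, with no threshold on their values, and all 7 were present in the data. Their messenger RNA was followed in 12 RNA-seq libraries from 3 human lines of breast cancer cells that the series title calls triple negative. These lines are SUM159, MDAMB231 and HCC1806. Each line was treated for 72 h in 4 ways, with 1 library per line and treatment. The treatments were the solvent DMSO, JQ1, GSK2801, or JQ1 together with GSK2801. JQ1 inhibits the bromodomains of the BET family of chromatin readers, and GSK2801 inhibits the bromodomains of BAZ2A and BAZ2B. GSK2801 was given at 10 µM in every line. JQ1 was given at 300 nM in SUM159, 100 nM in MDAMB231 and 500 nM in HCC1806. HCC1806 grew in RPMI 1640 with serum, whereas SUM159 and MDAMB231 grew in DMEM/F12 to which serum, hydrocortisone and insulin were added. Cell line and JQ1 dose therefore cannot be told apart, nor can line and medium where HCC1806 is compared with the others. A treatment is compared over the 3 lines, and the lines are the only replicates of a treatment. Unless another fit is named, each p-value for a treatment therefore measures the spread between these lines. A p-value for a difference between lines rests on the 4 libraries of each line, 1 per treatment. Its spread is that of differently treated cultures, and no line had repeat cultures of a treatment.

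EGF family ligands are made as membrane proteins with one EGF-like fold outside the cell, and metalloproteases such as ADAM17 release the soluble factor. AREG (amphiregulin) and TGFA (transforming growth factor alpha) bind EGFR. EPGN (epigen) is a weak ligand of the same receptor. HBEGF (heparin-binding EGF-like growth factor), EREG (epiregulin) and BTC (betacellulin) bind both EGFR and ERBB4. NRG1 (neuregulin 1) binds ERBB3 and ERBB4. Ligand binding pairs the receptors, with ERBB2 as the preferred partner that has no ligand of its own, and the paired kinases signal through RAS and ERK and through PI3K. In basal-like breast cancer cells, AREG, TGFA and HBEGF are known as autocrine ligands of EGFR.

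Of the 7 genes, EPGN, EREG, AREG and BTC lie near each other on chromosome 4. In the GENCODE v29 annotation of GRCh38, EPGN runs from 74308473 to 74315307, EREG from 74365143 to 74388751 and AREG from 74445134 to 74455009, all on the plus strand. BTC runs from 74744759 to 74794686 on the minus strand. The gaps are 49835 bases from EPGN to EREG, 56382 from EREG to AREG and 289749 from AREG to BTC. The promoters of the chromosome 4 genes are printed because the data below set these neighbours side by side. Each line holds the 150 bases before the gene's start in RefSeq on GRCh38.p14, 5′ to 3′ on the gene's strand. Starts below are RefSeq starts, which can differ from the GENCODE ones. For BTC all printed bases lie inside the GENCODE span, downstream of its GENCODE start at 74794686. Capitals mark TATAAA, the letters of a TATA box, and TGACGTCA, a cAMP response element. The AP-1 element TGANTCA was searched as well. All motifs were searched on both strands, and the marked ones did not overlap.
EPGN, chr4:74308320-74308469, plus strand: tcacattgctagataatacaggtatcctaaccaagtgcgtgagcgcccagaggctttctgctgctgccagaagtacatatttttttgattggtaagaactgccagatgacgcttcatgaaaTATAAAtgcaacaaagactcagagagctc
EREG, chr4:74364995-74365144, plus strand: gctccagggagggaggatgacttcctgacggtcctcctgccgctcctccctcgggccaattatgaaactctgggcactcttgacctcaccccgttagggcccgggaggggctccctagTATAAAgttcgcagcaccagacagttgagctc
AREG, chr4:74444986-74445135, plus strand: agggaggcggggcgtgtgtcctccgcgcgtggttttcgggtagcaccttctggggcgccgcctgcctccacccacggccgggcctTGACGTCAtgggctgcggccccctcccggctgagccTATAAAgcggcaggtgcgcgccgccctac
BTC, chr4:74794524-74794673, minus strand: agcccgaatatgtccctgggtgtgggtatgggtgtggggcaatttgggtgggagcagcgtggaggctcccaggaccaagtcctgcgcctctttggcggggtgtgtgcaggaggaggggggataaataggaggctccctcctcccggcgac
TATAAA began 29 bases before the start in EPGN and AREG and 32 bases before it in EREG. BTC held neither motif in the window set by its RefSeq start. The AREG promoter alone held TGACGTCA, 65 bases before the start. NRG1 was left out of the promoter search. RefSeq promoters of the other 6 of the 7 genes were searched from 250 bases before to 50 bases after each start. These were 7 promoters, 2 of them of TGFA, so the counts below are per gene and the background shares per promoter. TATAAA was found in 3 of the 6 genes against 11.5% of 35116 promoters of the same length, and TGACGTCA in 1 against 1.85%. TGANTCA was found in 0 of the 6 genes against 7.71% of promoters. GGGCGG (a GC box) was found in 4 of the 6, namely AREG, BTC, HBEGF and TGFA, against 45.0%. CACGTG (an E box) was found in 0 against 7.26%. These matches describe letters only.

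All values below are estimated reads that the authors scaled so that every library has the same upper quartile, called scaled reads here. The libraries held 24200000 to 46800000 estimated reads, and 1 read was worth 0.667 to 1.17 scaled reads. HCC1806 libraries carried epithelial RNA, with CDH1 (E-cadherin) at 14154 to 27120 scaled reads and VIM (vimentin) at 46.9 to 173. SUM159 libraries had VIM at 90380 to 142226 and CDH1 at 1.06 to 33.2, and MDAMB231 libraries had VIM at 91480 to 140589 and CDH1 at 6.39 to 30.01. CDH1 and VIM came from lists of 8 epithelial and 6 mesenchymal markers, whose members did not all follow them. TWIST1 was highest in HCC1806, at 265 to 418, against 122 to 247 in SUM159 and 0 in MDAMB231. SNAI2 was higher in HCC1806 (724 to 1237) than in SUM159 (485 to 627). CDH2 was higher in HCC1806 (705 to 1412) than in MDAMB231 (4.65 to 17.3). In MDAMB231, KRT18 read 10483 to 16385 and KRT19 2986 to 13965. The SUM159 libraries also held RNA of markers fixed for other cell types, and it moved with treatment. The sum of 5 blood and endothelial markers (CD14, CD3E, PECAM1, PTPRC, VWF) was 1243 with DMSO, 1340.2 with GSK2801, 248 with JQ1 and 346 with both in SUM159, against 7.97 to 23.5 in the other lines' libraries. The sum of 6 fibroblast and adipocyte markers (ADIPOQ, COL1A1, DCN, LUM, PDGFRB, PLIN1) was 48492, 40185, 20214 and 10635 in the same order, against 126 to 456 elsewhere. In SUM159, 5 of the 5 blood and endothelial markers and 6 of the 6 fibroblast and adipocyte markers were lower with JQ1 than with DMSO, while CD3E and ADIPOQ reached at most 1.17. COL1A1 made up most of the fibroblast and adipocyte sum in SUM159, at 46871 with DMSO. The blood and endothelial markers did not move as one: from DMSO to GSK2801, PTPRC went from 422 to 60.4 and PECAM1 from 730 to 1145. The part of this RNA in the SUM159 results was not tested.

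**Figure D1:**
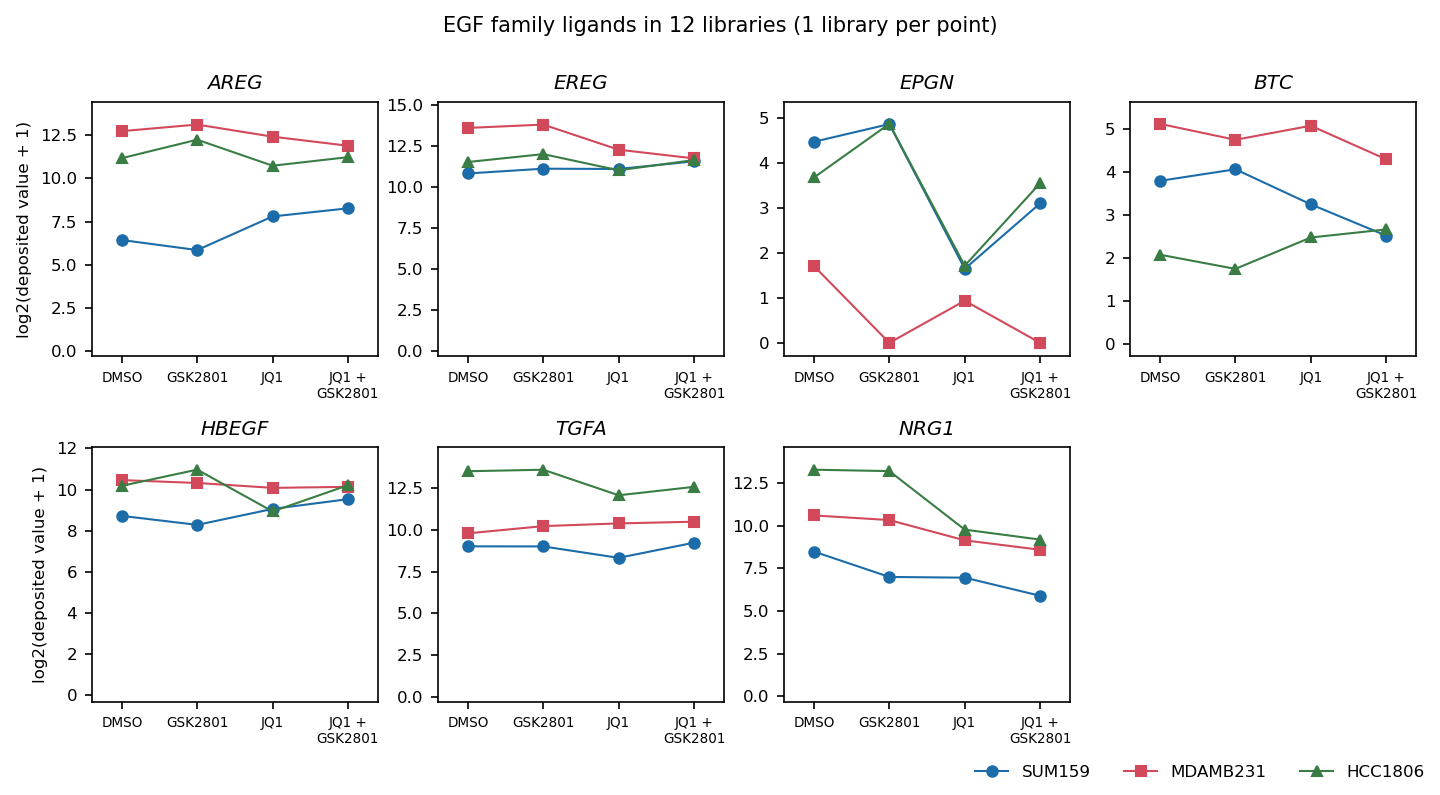
Scaled reads of the 7 ligands in every library, as log2(value + 1), with 1 panel per gene, the treatments along the horizontal axis, 1 point per library and colour and symbol for the line. Joining lines guide the eye. NRG1 is lowest with both compounds in every line, all SUM159 points of AREG lie at or below 308 and all others at or above 1706, and BTC and EPGN reach at most 33.9.

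The ligands differed in which line held most of their RNA. Averaged over the 12 libraries, EREG was highest at 4727 scaled reads, followed by TGFA at 3450, AREG at 3081, NRG1 at 2106 and HBEGF at 977. BTC averaged 14.1 and EPGN 9.56. These are levels per gene and are not corrected for length. EPGN was below the mean of 10 scaled reads required for testing, so 6 of the 7 genes were tested. Per kilobase of the longest coding transcript, with DMSO, the order in SUM159 was EREG at 394 scaled reads, HBEGF at 176, TGFA at 119, AREG at 69.0 and NRG1 at 60.3. In MDAMB231 the order was AREG at 5517, EREG at 2688, HBEGF at 590, NRG1 at 262 and TGFA at 205. In HCC1806 it was TGFA at 2717, AREG at 1864, NRG1 at 1678, EREG at 638 and HBEGF at 486. The transcripts in use are unknown, and the length choice changes this order, most of all for TGFA and NRG1, which have 5 and 10 annotated coding transcripts. Per kilobase of the shortest coding transcript, TGFA led in SUM159 at 634 and in HCC1806 at 14421, and AREG led in MDAMB231 at 7156.

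SUM159 had the lowest AREG. Its libraries read 85.5 with DMSO, 222 with JQ1, 56.9 with GSK2801 and 308 with both. In MDAMB231 the values were 6841, 5478, 8905 and 3806 scaled reads in the same order of treatments. In HCC1806 they were 2311, 1706, 4849 and 2406. Every SUM159 library was below every library of the other lines. With treatment in the model, AREG was 43.8-fold lower in SUM159 than in MDAMB231 (log2 difference −5.45 ± 0.56 SE, limma adjusted p = 3.6e-05) and 19.1-fold higher in HCC1806 than in SUM159 (4.26 ± 0.56, limma adjusted p = 1.2e-04). The difference between HCC1806 and MDAMB231 did not pass the test (−1.20 ± 0.56, limma adjusted p = 0.0849), and their libraries overlapped. It passed without the SUM159 line (0.00394), without SUM159 GSK2801 (0.0206) or HCC1806 GSK2801 (0.0396), and without the library with both compounds of SUM159 (0.0499) or MDAMB231 (0.0401).

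TGFA and NRG1 were highest in HCC1806. TGFA lies on chromosome 2 from 70447280 to 70554193 on the minus strand, and NRG1 on chromosome 8 from 31639386 to 32767959 on the plus strand. For TGFA, HCC1806 read 11709.6 with DMSO, 4307 with JQ1, 12469 with GSK2801 and 6115 with both. The SUM159 values were 514, 319, 513 and 599, and the MDAMB231 values 884, 1337, 1194 and 1435. Every HCC1806 library was above every other library. TGFA was 16.6-fold higher in HCC1806 than in SUM159 (log2 difference 4.05 ± 0.31, limma adjusted p = 3.0e-06) and 6.60-fold higher than in MDAMB231 (2.72 ± 0.31, limma adjusted p = 4.0e-05). NRG1 was 19.4-fold higher in HCC1806 than in SUM159 (4.28 ± 0.49, limma adjusted p = 4.6e-05) and 3.23-fold higher than in MDAMB231 (1.69 ± 0.49, limma adjusted p = 0.0122). Both were lower in SUM159 than in MDAMB231, with log2 differences of −2.58 for NRG1 (limma adjusted p = 0.00152) and −1.33 for TGFA (limma adjusted p = 0.00446). For NRG1 the HCC1806 and MDAMB231 libraries overlapped, since the 2 HCC1806 libraries with JQ1 lay below MDAMB231 with DMSO.

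EREG was highest in MDAMB231, at 12418 with DMSO, 4954 with JQ1, 14296 with GSK2801 and 3436 with both. The SUM159 values were 1819, 2199, 2224 and 3033 and the HCC1806 values 2949, 2078, 4114 and 3203. EREG was lower in SUM159 than in MDAMB231 (log2 difference −1.70, limma adjusted p = 0.00379) and lower in HCC1806 than in MDAMB231 (−1.31 ± 0.38, limma adjusted p = 0.0123). SUM159 and HCC1806 overlapped, and their difference did not pass the test (0.40 ± 0.38, limma adjusted p = 0.376). HBEGF, on chromosome 5 from 140332843 to 140346631 on the minus strand, varied least in level of the tested members, 6.45-fold between its extreme libraries. It read 421, 532, 311 and 739.8 in SUM159 with DMSO, JQ1, GSK2801 and both. It read 1407, 1083, 1277 and 1120.4 in MDAMB231, and 1160.0, 489, 2003 and 1182 in HCC1806. HBEGF was lower in SUM159 than in MDAMB231 (−1.35, limma adjusted p = 0.0117) and higher in HCC1806 than in SUM159 (1.17 ± 0.37, limma adjusted p = 0.0191). The last call was lost without the MDAMB231 line (limma adjusted p = 0.0574), without SUM159 with DMSO (0.0599) or GSK2801 (0.0633) and without HCC1806 with GSK2801 (0.0602). The difference between HCC1806 and MDAMB231 did not pass (−0.17 ± 0.37, limma adjusted p = 0.694).

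BTC was low in every library. MDAMB231 held 33.9, 32.9, 26.0 and 18.7 scaled reads with DMSO, JQ1, GSK2801 and both, from 28 to 45 reads. SUM159 held 12.9, 8.50, 15.7 and 4.72, and HCC1806 held 3.20, 4.56, 2.34 and 5.33, the latter from 2 to 5 reads. BTC was lower in HCC1806 than in MDAMB231 (log2 difference −2.58 ± 0.40, limma adjusted p = 3.5e-04), and the libraries of these lines did not overlap. It was also lower in SUM159 than in MDAMB231 (−1.41, limma adjusted p = 0.0138). The lower value in HCC1806 than in SUM159 (−1.17 ± 0.40, limma adjusted p = 0.0273) no longer passed with a pseudocount of 10 (0.0512), without the MDAMB231 line (0.0800) or without the DMSO or GSK2801 library of either line (0.0783 to 0.103). EPGN read 21.1, 2.12, 28.0 and 7.56 in SUM159, 2.26, 0.913, 0 and 0 in MDAMB231, and 11.7, 2.28, 28.1 and 10.7 in HCC1806. These are 0 to 3 reads per MDAMB231 library, in the line where its neighbours EREG and AREG had their highest values.

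Across the members, SUM159 was below MDAMB231 for all 6 tested genes, where 60.4% of all tested genes differed between these lines and 28.5% were lower in SUM159. Of all 7 genes, 6 had no overlap between the 4 SUM159 and the 4 MDAMB231 libraries, each with SUM159 lower, against 22.3% of tested genes lower and 24.7% higher without overlap. HCC1806 lay above SUM159 without overlap for 3 of 7 (AREG, TGFA and NRG1), against 28.5% of tested genes, and below it for 0, against 27.9%. It lay above MDAMB231 without overlap for 2 of 7 (TGFA and EPGN), against 29%, and below it for 1 (BTC), against 26.2%. HCC1806 differed from SUM159 in 5 of 6 tested members, 4 higher and 1 lower (BTC), against a background of 70% of tested genes, 34.5% higher and 35.5% lower. It differed from MDAMB231 in 4 of 6, with 2 higher and 2 lower, against 70.3%, 36.5% higher and 33.8% lower. The shares of members that differed from HCC1806 are near the background.

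NRG1, the ligand of ERBB3 and ERBB4, fell with JQ1, and no other member passed the test over the 3 lines. In these bulk libraries, fewer cells of a type and less RNA per cell cannot be told apart. In HCC1806, NRG1 read 9953 with DMSO, 872 with JQ1, 9408 with GSK2801 and 582 with both. In MDAMB231 it read 1554, 564, 1288 and 385, and in SUM159 it read 357, 123, 127 and 58.6. Within each line both libraries with JQ1 were below the DMSO and the GSK2801 library, by a small margin in SUM159, where GSK2801 alone was near JQ1. In SUM159 the blood, endothelial, fibroblast and adipocyte marker sums given above were lower with JQ1 as well. Their part in the NRG1 values was not tested. JQ1 alone against DMSO was 11.4-fold lower in HCC1806, 2.75-fold lower in MDAMB231 and 2.89-fold lower in SUM159. Over the lines NRG1 fell 4.49-fold with JQ1 (log2 change −2.17 ± 0.57, limma adjusted p = 0.0262). Without SUM159 the limma adjusted p was 0.0752, without MDAMB231 0.102 and without HCC1806 0.0762, where the change was −1.49. The call was also lost without SUM159 DMSO (0.0699), HCC1806 DMSO (0.101), MDAMB231 JQ1 (0.0668) or HCC1806 JQ1 (0.111). Without SUM159, MDAMB231 or HCC1806, JQ1 called 1643, 1532 and 402 of all tested genes, against 3223 with all lines. With both compounds NRG1 fell 7.45-fold against DMSO (−2.90 ± 0.57, limma adjusted p = 0.00500), and this call held with any 1 line or any 1 library left out, with limma adjusted p up to 0.0378. Both comparisons use the same DMSO libraries. With both compounds against GSK2801 alone NRG1 fell by 2.28 on the log2 scale (−2.28 ± 0.57, limma adjusted p = 0.0169), a call lost without MDAMB231 (0.0834), HCC1806 (0.0628), HCC1806 GSK2801 (0.0628) or the HCC1806 library with both (0.0678), and in a fit of the compared libraries only (0.0816).

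The count for JQ1 was 1 lower and 0 higher of 6 tested members, against 22.6% of all tested genes called, 13.1% lower and 9.52% higher. For both compounds against DMSO it was again 1 of 6, against 34.8% called and 19.8% lower, and for both against GSK2801 1 of 6, against 29% called and 17.2% lower. A share of 1 in 6 is near the background. In the fit that gave each line its own JQ1 effect, EREG (limma adjusted p = 0.0485) and TGFA (limma adjusted p = 0.0166) also passed with JQ1. That fit left differences between lines in the JQ1 effect out of its error, and it called 7479 of the 14232 tested genes with JQ1. Without line as a block no member passed, and of all tested genes 0 were called with JQ1. In that fit 41 were called for both compounds against DMSO and 3 for both against GSK2801. Over all genes the balance of calls turned with the scaling: 58.0% of the JQ1 calls were lower as deposited and 45.8% after TMM rescaling, for both compounds against DMSO 56.9% and 46.2%, and for both against GSK2801 59.2% and 44.8%. NRG1 passed the JQ1 test under both scalings. The median log2 change with JQ1 was −0.47 over the 6 members and −0.08 over all tested genes. The other members gave log2 changes with JQ1 of 0.20 ± 0.65 for AREG, −0.52 ± 0.44 for EREG, −0.43 ± 0.43 for HBEGF, −0.51 ± 0.35 for TGFA and −0.06 ± 0.47 for BTC, with limma adjusted p from 0.325 to 0.932. With JQ1, 2 of the 7 genes were lower in all 3 lines, NRG1 and EPGN, and 0 were higher in all 3, where 28.8% of tested genes were lower and 21.7% higher in all 3. With both compounds against DMSO the same 2 genes were lower in all 3 lines and 0 higher, against 30% and 22.5%. EPGN had 18 reads with DMSO and 2 with JQ1 in SUM159, 11 and 2 in HCC1806, and 3 and 1 in MDAMB231. When tested without the filter on low values, EPGN did not pass (−1.85 ± 0.74, limma adjusted p = 0.137).

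For AREG, EREG, HBEGF, TGFA and the low BTC the JQ1 ratios differed in sign between lines. The differences of the JQ1 effect between lines were tested. For this test each line's JQ1 effect was the mean of its JQ1-to-DMSO and its both-to-GSK2801 log2 ratios, and the departure of those ratios from each other served as error.

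**Figure D2:**
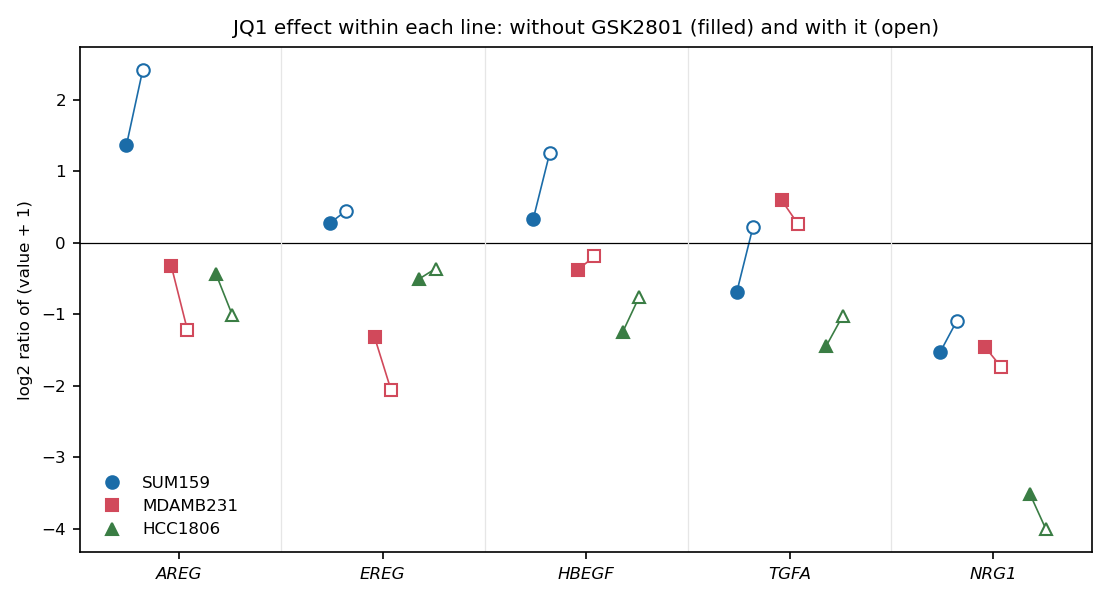
JQ1 effect on 5 ligands in each line, as log2 ratios of (value + 1), with filled points for JQ1 against DMSO and open points for both compounds against GSK2801. AREG lies at 1.37 and 2.42 in SUM159 and below 0 in the other lines, and NRG1 lies below 0 in every line, at −3.51 and −4.01 in HCC1806.

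AREG was higher with JQ1 in SUM159 and lower with JQ1 in the other lines. In SUM159 it was 2.58-fold higher with JQ1 than with DMSO and 3.57-fold higher with both compounds than with DMSO. In MDAMB231 the same ratios were 1.25-fold and 1.80-fold lower. On the log2 scale, the mean JQ1 effect on AREG was 1.89 for SUM159, −0.77 for MDAMB231 and −0.72 for HCC1806. The SUM159 effect exceeded the MDAMB231 effect by 2.66 ± 0.40 (limma adjusted p = 0.00452), although the SUM159 levels stayed below every level of the other lines. Without SUM159 GSK2801 or the SUM159 library with both, it missed the threshold (0.0548 and 0.0549).

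EREG, the neighbour of AREG, had a mean JQ1 effect of 0.36 for SUM159, −1.69 for MDAMB231 and −0.43 for HCC1806. In MDAMB231 it was 2.51-fold lower with JQ1 than with DMSO and 3.61-fold lower with both. In SUM159 it was 1.21-fold and 1.67-fold higher. The SUM159 effect exceeded the MDAMB231 effect by 2.05 ± 0.22 (limma adjusted p = 0.00198). HBEGF had effects of 0.79, −0.28 and −1.003 in SUM159, MDAMB231 and HCC1806, and SUM159 exceeded MDAMB231 by 1.077 ± 0.30 (limma adjusted p = 0.0332). The HBEGF call was lost without the filter on low values (0.0633), without the variance trend (0.0954), and in 10 of 12 fits with 1 library left out (0.0879 to 0.170). Fits with 1 library left out called 881 to 2912 of all tested genes in this comparison, against 4159 in the main fit. The EGFR ligands AREG, EREG and HBEGF thus had JQ1 effects above 0 in SUM159 and below 0 in MDAMB231. TGFA effects had the opposite signs, and their difference did not pass (−0.66 ± 0.29, limma adjusted p = 0.127), and the NRG1 effects of both lines differed by 0.28 ± 0.23 (limma adjusted p = 0.384, 95% interval −0.26 to 0.82). The BTC difference did not pass either (−0.80 ± 0.56, limma adjusted p = 0.312). Of the 6 tested members, 3 were thus higher and 0 lower in SUM159 than in MDAMB231. The background was 29.2% of tested genes called, 11.4% higher and 17.9% lower. Of all calls, 61.1% were lower as deposited, 50.5% after TMM rescaling and 47.6% after quantile normalization. The marker sums given above were lower with JQ1 in SUM159, and their part in the ligand values of that line was not tested.

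HCC1806 had the lowest JQ1 effect for NRG1, TGFA and HBEGF. The NRG1 effect was −3.76 in HCC1806, 13.6-fold lower, against −1.32 in SUM159 and −1.60 in MDAMB231, which are 2.49-fold and 3.03-fold lower. The HCC1806 effect minus the mean of the other lines was −2.30 ± 0.20 (limma adjusted p = 8.0e-04). The TGFA effect was −1.24 for HCC1806, −0.23 for SUM159 and 0.43 for MDAMB231, a difference of −1.33 ± 0.25 (limma adjusted p = 0.0103). TGFA was 2.72-fold lower with JQ1 than with DMSO in HCC1806 and 1.51-fold higher in MDAMB231. The HBEGF difference was −1.26 ± 0.26 (limma adjusted p = 0.0137). The AREG difference was −1.28 ± 0.35 (limma adjusted p = 0.0347), and for AREG the MDAMB231 effect was as low as that of HCC1806. For EREG the difference did not pass (0.23 ± 0.19, limma adjusted p = 0.399), except without MDAMB231 DMSO (0.0410) or MDAMB231 JQ1 (0.0403). The BTC difference, from few reads, went the other way and did not pass (1.31 ± 0.48, limma adjusted p = 0.0847). In all, 4 of 6 members were lower and 0 higher, against 25.1% of tested genes called, 10.6% lower and 14.5% higher. Of all calls, 42.4% were lower as deposited and 57.2% after TMM rescaling. NRG1 passed with any 1 library left out (limma adjusted p up to 0.0439). The other 3 did not pass when any one HCC1806 library was left out (0.0967 to 0.290) or without the variance trend (0.0521 for TGFA, 0.0579 for HBEGF and 0.106 for AREG). Without 1 HCC1806 library 371 to 648 of all tested genes were called, and without the variance trend 2156, against 3570 in the main fit. The AREG call was also lost without the filter on low values (0.0674), without MDAMB231 DMSO (0.0782) or JQ1 (0.0776), and without SUM159 GSK2801 (0.0969) or the SUM159 library with both (0.0976). The HCC1806 cells received the highest JQ1 dose, and dose, medium and line cannot be told apart.

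No member passed the test for GSK2801 alone. That comparison called 0 of the 14232 tested genes with limma, of which 161 had an unadjusted p under 0.05. EREG was higher with GSK2801 than with DMSO in each line, by 0.29, 0.20 and 0.48 on the log2 scale in SUM159, MDAMB231 and HCC1806, and its fitted change was 0.32 ± 0.44 (limma adjusted p = 1.00). AREG was 2.10-fold higher in HCC1806, 1.30-fold higher in MDAMB231 and 1.496-fold lower in SUM159. NRG1 was 2.80-fold lower in SUM159 and 1.21-fold and 1.06-fold lower in MDAMB231 and HCC1806, with a fitted change of −0.61 ± 0.57 (limma adjusted p = 1.00). In all, 1 of 7 members was higher and 1 lower in all 3 lines, against 19.7% and 17.6% of tested genes.

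**Figure D3:**
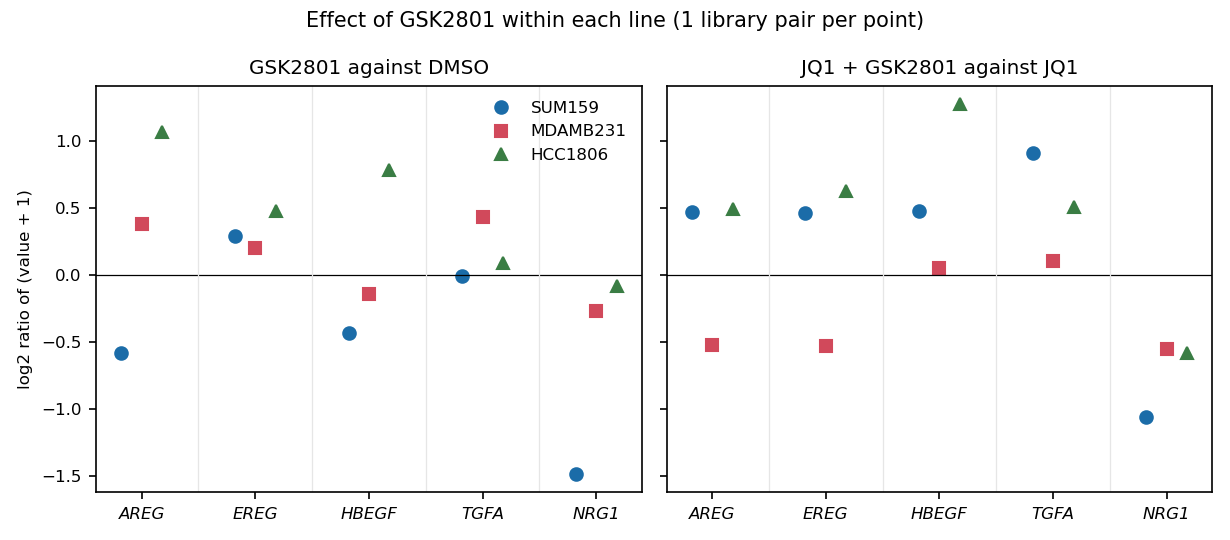
Log2 ratios of (value + 1) of 5 ligands within each line (vertical axis), for GSK2801 against DMSO and for both compounds against JQ1 alone, with 1 point per line. NRG1 is below 0 in all 3 lines in both comparisons, and HBEGF and TGFA are above 0 in all 3 when GSK2801 is added to JQ1.

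The comparison of both compounds with JQ1 alone also called 0 genes with limma, 1031 having an unadjusted p under 0.05. HBEGF was higher with both than with JQ1 alone in each line, by 0.47, 0.05 and 1.27 on the log2 scale, with a fitted difference of 0.60 ± 0.43 (limma adjusted p = 0.846). TGFA was higher by 0.91, 0.10 and 0.51, with a fitted difference of 0.51 ± 0.35 (limma adjusted p = 0.837). NRG1 was lower in each line, with log2 ratios of −1.06, −0.55 and −0.58 and a fitted difference of −0.73 ± 0.57 (limma adjusted p = 0.863). Members with one direction in all 3 lines numbered 2 higher and 1 lower of 7, against 21.7% and 20% of tested genes. In HCC1806, HBEGF was 489 with JQ1 and 1182 with both compounds, close to the 1160.0 of DMSO, and AREG and EREG with both compounds were likewise near their DMSO values at 2406 and 3203. No departure from additivity was called for any of the 14232 genes with limma, and 171 had an unadjusted p under 0.05.

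None of the 4 receptors of these ligands passed the test over the 3 lines. Against DMSO, 22.6% of all tested genes were called with JQ1 and 34.8% with both compounds. EGFR, the main receptor of 6 of the 7 ligands, had 25359, 24205, 31932 and 25508 scaled reads in HCC1806 with DMSO, JQ1, GSK2801 and both. In MDAMB231 it had 19349, 32867, 23232 and 38831, and in SUM159 6379, 5298, 6225 and 4143. With JQ1 the fitted log2 changes were 0.14 ± 0.27 for EGFR, 0.26 ± 0.18 for ERBB2, −0.23 ± 0.36 for ERBB3 and 1.45 ± 1.67 for ERBB4, with limma adjusted p from 0.308 to 0.731. In the fit with each line's own JQ1 effect, which called 7479 of the 14232 tested genes, ERBB2 passed (limma adjusted p = 0.00281). None of the 4 passed with both compounds either. The JQ1 effect on EGFR, unlike that on AREG and EREG, was lower in SUM159 than in MDAMB231 (−1.18 ± 0.15, limma adjusted p = 0.00295). This was not particular to EGFR, since 4 of the 4 receptors were called lower in this comparison and 0 higher. Of all tested genes, 29.2% were called in it, 17.9% lower and 11.4% higher. ERBB3, which binds NRG1, was largely an HCC1806 transcript, with 4621 to 5830 scaled reads there, 172 to 277 in MDAMB231 and 18.1 to 50.4 in SUM159. With DMSO, NRG1 and ERBB3 thus both had their highest values in HCC1806, and with JQ1 ERBB3 stood at 5830 there while NRG1 stood at 872.

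**Figure D4:**
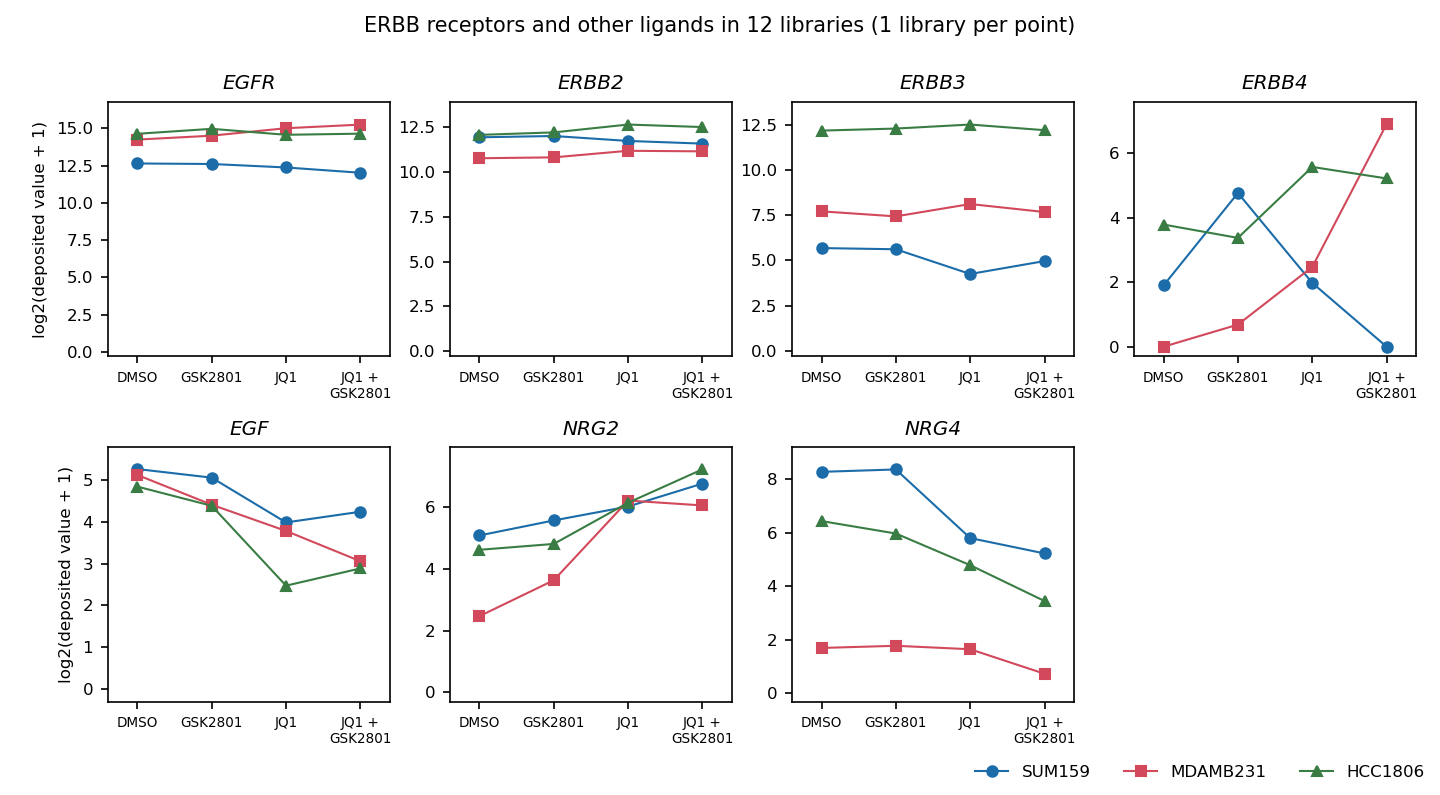
Scaled reads of the receptors EGFR, ERBB2, ERBB3 and ERBB4 and the ligands EGF, NRG2 and NRG4 in every library, as log2(value + 1), with treatments along the horizontal axis and colour and symbol for the line. EGFR is at 4143 or more in all 12 libraries, and ERBB3 is at 4621 or more in HCC1806 and at 277 or less in the other lines.

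Among the 4 remaining ligands of the family, JQ1 called 1 higher and 1 lower of the 3 tested. Of all tested genes, JQ1 called 22.6%, 9.52% higher and 13.1% lower. NRG2 (neuregulin 2) rose with JQ1 (2.07 ± 0.50, limma adjusted p = 0.0184), opposite to NRG1, from 4.52 to 73.0 scaled reads in MDAMB231, 23.5 to 69.5 in HCC1806 and 32.8 to 63.7 in SUM159. The call was lost without MDAMB231 (0.109) or HCC1806 (0.125). EGF fell with JQ1 (−1.66 ± 0.36, limma adjusted p = 0.0123), from 37.5 to 14.9 in SUM159, 33.9 to 12.8 in MDAMB231 and 27.8 to 4.56 in HCC1806, a call lost when any line was left out (0.0548 to 0.104). NRG4 read 310, 55.0, 330 and 36.6 in SUM159 with DMSO, JQ1, GSK2801 and both, and it fell with both compounds against DMSO (−2.33 ± 0.52, limma adjusted p = 0.00912). With JQ1 alone NRG4 did not pass (−1.39 ± 0.52, limma adjusted p = 0.0868), except in the fit with each line's own JQ1 effect (0.00269) and without MDAMB231. With MDAMB231 left out the NRG4 change was −2.06 (limma adjusted p = 0.0377), so the lines did not share it evenly. NRG2 rose with both compounds as well (2.62 ± 0.50, limma adjusted p = 0.00425), and EGF fell (−1.68, limma adjusted p = 0.00725). In SUM159 the marker sums were also lower with JQ1, and their part in the EGF and NRG4 values was not tested. NRG3 was listed at 0 in all 12 libraries.

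The counts in the next 4 lists stand against 22.6% of all tested genes called with JQ1 and 34.8% with both compounds, and none is read as particular to its list. Of 16 genes for ligand shedding and maturation, 2 rose and 1 fell with JQ1. BACE1, a protease that cleaves NRG1, rose (1.21 ± 0.20, limma adjusted p = 0.00457). FRMD8, a stabilising partner of the iRhom proteins that carry ADAM17, rose (0.54 ± 0.13, limma adjusted p = 0.0172). ADAM12, a metalloprotease, fell (−0.95 ± 0.26, limma adjusted p = 0.0321). Of 10 tested negative regulators of the receptors 0 rose and 1 fell, LRIG3 (−0.72 ± 0.21, limma adjusted p = 0.0402). Next in that list were CBLB, an E3 ubiquitin ligase (0.78, limma adjusted p = 0.0898), and SOCS5 (−0.30, limma adjusted p = 0.0940), which did not pass. Among 18 signal relay genes, 1 rose, the adaptor GAB1 (0.72 ± 0.19, limma adjusted p = 0.0248), and 1 fell, the RAS gene NRAS (−0.57 ± 0.09, limma adjusted p = 0.00442). Among 15 genes induced by ERK signalling, 0 rose and 2 fell, the transcription factor ETV4 (−1.74 ± 0.23, limma adjusted p = 0.00217) and PHLDA1 (−0.43 ± 0.13, limma adjusted p = 0.0448). EGR1 did not pass (1.36 ± 0.43, limma adjusted p = 0.0502). These ERK-list calls turned with the scaling: EGR1 passed after TMM rescaling (0.0351) and quantile normalization (0.0441), and PHLDA1 did not (0.0700 and 0.0774). LRIG3 did not pass after quantile normalization (0.0605). In the fit with each line's own JQ1 effect, which called 7479 of the 14232 tested genes, EGR1 (2.6e-04), CBLB (4.0e-04) and SOCS5 (0.00804) passed. With both compounds against DMSO, 3 shedding genes rose and 1 fell, 2 negative regulators rose and 2 fell, 4 relay genes rose and 3 fell, and 1 ERK-induced gene rose and 1 fell. GSK2801 alone called 0 genes in every one of these lists. Leaving out 1 line or 1 library ended each of the JQ1 calls named here at least once except that of BACE1.

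Other genes lie around the ligand cluster on chromosome 4. Of 21 other genes with a start within 1 Mb of EPGN, EREG, AREG or BTC, 12 were tested, and with JQ1 0 rose and 1 fell, RCHY1 (−1.04 ± 0.18, limma adjusted p = 0.00513), an E3 ubiquitin ligase gene, against 22.6% of all tested genes called. With both compounds against DMSO, G3BP2 (0.38, limma adjusted p = 0.0357) and USO1 (0.50, limma adjusted p = 0.00333) rose and RCHY1 fell (−1.20, limma adjusted p = 0.00142), which is 3 of 12 against 34.8%. Against GSK2801 alone, 2 of the 12 rose and 1 fell with both compounds, against 29%. The chemokine genes CXCL1 (−1.12, limma adjusted p = 0.280) and CXCL8 (−0.63, limma adjusted p = 0.660) did not pass.

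The ligands did not share one pattern across treatments. After subtracting each line's mean log2 level, Pearson's r over the 12 libraries was 0.80 between AREG and HBEGF, 0.62 between the neighbours AREG and EREG, 0.54 between HBEGF and TGFA and 0.04 between EREG and TGFA. The genes most like each member by the same measure, among 11531 genes with a mean of at least 100, were NOP56, FBXO45 and FAM239B for EREG, with r of 0.976, 0.966 and 0.964. For NRG1 they were PPP4R1, FJX1 and CPED1, with r of 0.986, 0.981 and 0.978. For TGFA they were COX7B, SEC63 and CKMT1B, with r of 0.951, 0.939 and 0.936. AREG and HBEGF had less close matches, SOAT1, E2F7 and STX1A for AREG with r of 0.873, 0.869 and 0.868, and DUSP5, SEC61G and MPP6 for HBEGF with r of 0.865, 0.861 and 0.856. These are descriptions over 12 libraries that share 3 lines and 4 treatments, and the highest of many correlations is high by selection.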

How the data were processed

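The authors deposited 1 file per library with a gene symbol and 1 value. Per the submitters' processing notes, reads were processed with STAR 2.4 and Salmon 0.60 on hg38. The scaling step is not given in the sources used here. The deposited values were taken as signal, meaning estimated reads scaled per library, because the upper quartile of values above 0 was equal in all 12 libraries and 67.2% to 69.3% of values were whole multiples of 1 step within 0.02. No counting interval was computed. The labels name both a stranded and a TruSeq library kit, so reads of antisense genes cannot be told apart.

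Genes with a mean of at least 10 (14232 of 28512) were fitted with limma 3.58.1 in R 4.3.3 on log2(value + 1), with line as block and treatment as term, so a fold change understates changes of low genes. The line contrasts came from the same fit. Line-specific JQ1 effects came from a model with 1 JQ1 and 1 GSK2801 term per line. Benjamini-Hochberg adjustment covered the whole set of tested genes, with a threshold of 0.05. Libraries of 1 line correlated with r of 0.935 to 0.993, against 0.685 to 0.810 between lines, the pairing being the labelled cell line. The 7 members, pathway lists and rules were chosen with earlier results of these data known. All members and receptors were named, and from each other list the 3 genes with the smallest p for JQ1, leaving out list genes that are not reported here. RCHY1, G3BP2, USO1, CXCL1 and CXCL8 were named after their values were seen. The JQ1 test over the 3 lines was checked on simulated data in which each planted change was the same in every line. The other tests were not checked in this way. Alternatives covered the pseudocount, filter, scaling, variance trend, replicate block, libraries in the fit and each line or library left out.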

Additional observations from a re-analysis of the deposited data

Results flagged for a closer look

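By a test of the difference itself, the JQ1 effect differed between SUM159 and MDAMB231 for 3 of the 6 tested ligands. Between HCC1806 and the mean of the other lines it differed for 4 of the 6. AREG and HBEGF are in both counts. Over all tested genes the same tests called 29.2% between SUM159 and MDAMB231 and 25.1% between HCC1806 and the other lines. Between SUM159 and MDAMB231, the log2 effect was higher in SUM159 by 2.66 for AREG (limma adjusted p = 0.00452), by 2.05 for EREG (limma adjusted p = 0.00198) and by 1.077 for HBEGF (limma adjusted p = 0.0332). The mean SUM159 effects were 1.89, 0.36 and 0.79 and the MDAMB231 effects −0.77, −1.69 and −0.28. Between HCC1806 and the mean of the other lines, the difference was −2.30 for NRG1 (limma adjusted p = 8.0e-04), −1.33 for TGFA (limma adjusted p = 0.0103), −1.26 for HBEGF (limma adjusted p = 0.0137) and −1.28 for AREG (limma adjusted p = 0.0347). With 1 library left out, the HBEGF difference between SUM159 and MDAMB231 was lost in 10 of 12 fits, the AREG one without SUM159 GSK2801 or the SUM159 library with both, and the TGFA, HBEGF and AREG differences of HCC1806 without any one HCC1806 library. Calls over all tested genes fell as well, from 4159 to between 881 and 2912 for SUM159 against MDAMB231. For HCC1806 they fell from 3570 to between 371 and 648 without any one HCC1806 library. JQ1 dose differed between all lines, and HCC1806 alone grew in another medium, so their part cannot be told apart from that of the line.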

How the results depend on the processing

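The lines are the only replicates, a treatment has 3 libraries, and low genes such as BTC and EPGN rest on few reads. Without the replicate block, the pairing of libraries by line, 0 members passed for JQ1 against DMSO, 0 for both compounds against DMSO and 0 for both against GSK2801, with limma adjusted p for NRG1 of 1.00, 0.639 and 0.903. Without the block, 0, 41 and 3 of all 14232 tested genes were called in the same order, against 3223, 4959 and 4132 in the main fit. With each line's own JQ1 effect, 3 members passed for JQ1 and 2 for both against GSK2801, where EREG was added (limma adjusted p = 0.0176). That fit called 7479 of all tested genes for JQ1 and 8216 for both against GSK2801. In a fit of the compared libraries only, 0 passed for both against GSK2801, where 300 of all tested genes were called. Without the variance trend, 1 member passed for the HCC1806 difference in JQ1 effect, where 2156 of all tested genes were called against 3570 in the main fit. With 1 line or library left out, members passing ranged from 0 to 1 for JQ1, 1 to 1 for both compounds against DMSO, 0 to 1 for both against GSK2801, 3 to 5 for HCC1806 against SUM159, 1 to 4 for the HCC1806 difference in JQ1 effect and 1 to 3 for the SUM159 difference. Without SUM159, MDAMB231 or HCC1806, JQ1 called 1643, 1532 and 402 of all tested genes.

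No value that changed sign passed its test, before or after the change. For BTC with JQ1 quantile normalization gave 0.15, and for TGFA with both compounds quantile normalization gave 0.041 and TMM rescaling 0.083. With a line or library left out, log2 changes with JQ1 ranged from −0.38 to 0.60 for AREG, −0.30 to 0.18 for BTC, −0.81 to 0.076 for HBEGF, −0.17 to 0.37 for EGFR and −0.55 to 0.37 for ERBB3. With both compounds against DMSO they ranged from −0.39 to 0.95 for AREG, −0.87 to 0.43 for EREG, −0.15 to 0.42 for HBEGF and −0.36 to 0.46 for TGFA. EREG ranged from −0.0029 to 0.73 for GSK2801 and from −1.21 to 0.043 for both against GSK2801, and HBEGF from −0.56 to 0.20 for HCC1806 against MDAMB231. The cause was not tested. Another scaling moved the median of all genes by over 0.1 in the JQ1 effect of HCC1806 against the other lines (0.08 to −0.02 with TMM), of SUM159 against MDAMB231 (−0.10 to 0.03 with quantile normalization) and in HCC1806 against MDAMB231 (0.04 to −0.09 with quantile normalization).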
